A study of Mus musculus with 24 samples.

Results

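The set described here is 10 genes of glutathione metabolism and oxidative defence: Gclc, Gclm, Gpx1, Gpx2, Gsta4, Gstm1, Gstm2, Txnrd1, Nqo1 and Hmox1. The genes were chosen by name, for what their enzymes do, with earlier results of these data known. They are 10 of the 35855 genes to which the deposited transcripts could be assigned. All 10 passed the filter on low counts, as did 12211 genes in all. The series measured RNA in airway epithelial cells of naive wild-type C57BL/6 female mice, with 1000 cells sorted from the trachea for each library, lysis in TCL buffer, SmartSeq2 chemistry for cell populations and paired reads of 38 bp. The epithelial cell subsets are BCAM HI, BCAM LO and DIFFERENTIATED EPCS in the labels, called BCAM high, BCAM low and differentiated below, and each has 8 libraries, 5 of batch 1 and 3 of batch 2. BCAM is a laminin-binding surface protein, and the series title describes the cells as subsets of basal epithelial cells, the progenitors of the airway lining. No treatment, allele or transgene is labelled in any group, and the age of the mice, the gate that defined the differentiated cells and the meaning of the batch number are not stated in the labels. Nothing says whether libraries came from separate mice, so p-values measure only the spread between these samples, which may be technical.

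Glutathione is a small thiol that cells make in a limiting step run by glutamate-cysteine ligase, whose catalytic and modifier subunits are encoded by Gclc and Gclm. Glutathione peroxidases spend it to reduce peroxides, glutathione transferases attach it to reactive compounds, and thioredoxin reductase serves the parallel thioredoxin system. Many of these genes are classic targets of the transcription factor NRF2, which binds the antioxidant response element, and airway epithelium, exposed to oxygen and inhaled compounds, is a tissue in which the system is well studied.

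Marker genes were read in each subset first. The summed level of 12 basal markers had a median of 7640 CPM (counts scaled to library total) in BCAM high, 6351 in BCAM low, against 2151 in differentiated libraries, and Krt5 and Krt14, the defining basal keratins, were at 0 in 5 and 6 of the 8 differentiated libraries. The summed level of 12 secretory markers ranged from 35346 to 48887 CPM in BCAM high, from 42220 to 99063 in BCAM low, from 309154 to 450242 in differentiated libraries of batch 1 and from 17192 to 115083 in those of batch 2. Thyroid transcripts (6 genes, led by Tg) summed to 13796 to 25930 CPM in differentiated libraries of batch 1 and to 49434 to 116833 in those of batch 2, against at most 1284 CPM in any BCAM library. Neuroendocrine markers (6 genes) summed to 365 to 11457 CPM in differentiated libraries of batch 1 and to 19.3 to 193 in those of batch 2, and parathyroid markers (3 genes) to 189 to 17781 and to 0.41 to 238 CPM. The differentiated libraries of batch 2 thus stood apart from those of batch 1, and the part of these other cell types in the results against differentiated cells was not tested. In such bulk samples, fewer cells of a type and less RNA per cell cannot be told apart.

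Promoter windows of several members are shown first. NRF2 binds with small MAF proteins at the antioxidant response element, whose core was searched as TGACNNNGC on both strands (GCNNNGTCA where it lies on the other strand) in RefSeq windows of 250 bases before to 50 bases after a start. Windows were given for 7 of the 10 members (10 windows; none for Gclc, Gsta4 and Hmox1). The core was found in 2 of these 10 windows, against 12.4% of 32851 windows of the same length over 27025 genes. For so few windows this count is near that share, and it does not set the members apart. The AP-1 letters TGANTCA, in 7.81% of all windows, were found in none of the 10. The printed stretches run 5′ to 3′ on the gene's strand, end at the base before the first annotated start in the window, and come from RefSeq on GRCm38.p6; capitals mark the core, which is a match of letters and not a measured site. Gclm, at chr3:122245307-122245556 on the plus strand, holds the core 134 bases before its start. Txnrd1 has 3 windows, of which the window at the start of transcript Txnrd1-201 (chr10:82858956-82859178, plus strand) holds the core 65 bases before that start, while the window of the upstream transcript Txnrd1-205 (chr10:82833701-82833950, plus strand) holds none. Gstm1 (chr3:108017974-108018223, minus strand) and Gstm2 (chr3:107986454-107986670, minus strand), neighbours on chromosome 3 with starts 31520 bases apart, are shown because they moved together in the data; neither holds the core in these windows.
Gclm: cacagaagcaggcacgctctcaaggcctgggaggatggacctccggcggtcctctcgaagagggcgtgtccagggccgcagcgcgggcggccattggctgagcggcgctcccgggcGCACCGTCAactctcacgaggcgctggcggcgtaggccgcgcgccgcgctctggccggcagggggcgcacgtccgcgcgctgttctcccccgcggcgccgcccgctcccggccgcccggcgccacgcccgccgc
Txnrd1, window of Txnrd1-201: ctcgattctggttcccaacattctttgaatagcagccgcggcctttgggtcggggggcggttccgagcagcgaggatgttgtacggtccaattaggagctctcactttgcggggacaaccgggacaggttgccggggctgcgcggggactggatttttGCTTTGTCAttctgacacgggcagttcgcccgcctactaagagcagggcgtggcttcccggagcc
Txnrd1, window of Txnrd1-205: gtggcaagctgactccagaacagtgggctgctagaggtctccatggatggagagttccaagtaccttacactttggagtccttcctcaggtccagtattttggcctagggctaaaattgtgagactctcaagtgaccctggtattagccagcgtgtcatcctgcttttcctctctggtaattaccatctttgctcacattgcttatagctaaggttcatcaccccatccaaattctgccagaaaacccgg
Gstm1: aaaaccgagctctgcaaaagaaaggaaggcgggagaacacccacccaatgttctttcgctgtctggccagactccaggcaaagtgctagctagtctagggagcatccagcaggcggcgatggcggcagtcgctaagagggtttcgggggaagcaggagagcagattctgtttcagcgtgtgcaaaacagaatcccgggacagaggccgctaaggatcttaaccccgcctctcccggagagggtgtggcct
Gstm2: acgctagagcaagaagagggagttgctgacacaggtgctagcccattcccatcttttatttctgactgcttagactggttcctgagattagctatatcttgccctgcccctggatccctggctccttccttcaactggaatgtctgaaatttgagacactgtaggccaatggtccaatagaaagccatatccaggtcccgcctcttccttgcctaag

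By level, the transferases led the set. TPM values, which are scaled to transcript length and so allow genes to be compared, had medians in BCAM high of 4651 for Gstm1, 1508 for Gstm2, 1092 for Gsta4, 402 for Gpx2 and 321 for Gpx1. The other 5 genes lay far below, with BCAM high medians of 28.1 TPM for Gclm, 27.5 for Gclc, 15.6 for Hmox1, 14.5 for Txnrd1 and 4.01 for Nqo1. Gstm1 was clear of its nearest neighbour in BCAM high, where its lowest library (2274 TPM) exceeded the highest of Gstm2 (1792 TPM). Over both batches the ranges of Gstm2 and Gsta4 overlapped, as did those of Gpx2 and Gpx1, of Gclm and Gclc, and of Hmox1 and Txnrd1. For Gstm2 and Gsta4 in BCAM high the order turned with the batch. Gstm2 was above Gsta4 in batch 1 (1477 to 1792 against 1025 to 1200 TPM) and below it in batch 2 (540 to 746 against 1085 to 1359 TPM). Gclm was above Gclc in batch 2 (46.8 to 80.7 against 21.8 to 32.3 TPM), while their ranges overlapped in batch 1. For the other pairs the order was not set beyond the spread. In BCAM low, Gsta4 (median 1088 TPM) stood above Gstm2 (834 TPM), with overlapping ranges. In differentiated libraries the medians of Gclm (8.91 TPM) and Gclc (8.10 TPM) fell behind those of Txnrd1 (13.2 TPM) and Hmox1 (13.1 TPM), again with overlapping ranges. Counts behind the values ran from 526 to 15685 for Gstm1 and from 5 to 58 for Nqo1 across the 24 libraries, so Nqo1 carries the most counting error of the set.

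**Figure D1:**
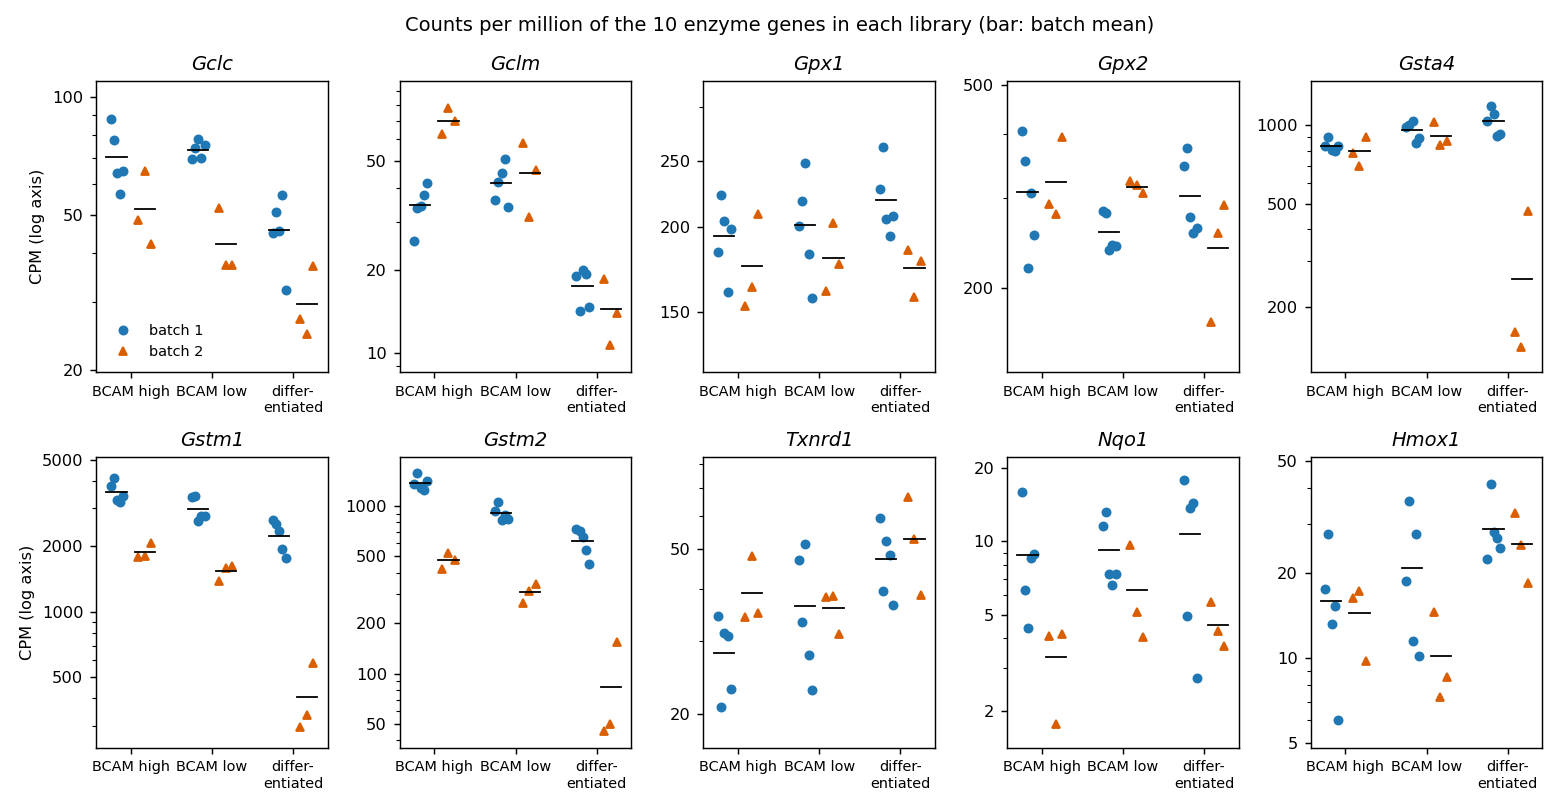
CPM (counts scaled to library total, log axis) of each of the 10 genes in the 24 libraries, by subset on the horizontal axis and batch by colour and marker, with a bar at each batch mean. Gclm is higher in every BCAM library than in any differentiated library, and Gsta4, Gstm1 and Gstm2 are lowest in the 3 differentiated libraries of batch 2.

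The first question the design poses is how each basal subset compares with differentiated cells, and both BCAM comparisons use the same 8 differentiated libraries. Gclc, Gclm, Gstm1 and Gstm2 were higher in both BCAM subsets, by 1.54-fold to 3.04-fold, and Hmox1 was lower in both, by 1.78-fold in BCAM high and 1.66-fold in BCAM low. Txnrd1 was also lower in BCAM high, by 1.54-fold. Differences were tested two-sided by the quasi-likelihood method of edgeR, with batch as a covariate; edgeR QL below names this test, and its adjusted p is by Benjamini and Hochberg over 12211 genes. It called 6 of the 10 genes in BCAM high against differentiated (4 higher, 2 lower) and 5 in BCAM low against differentiated (4 higher, 1 lower). Of all genes tested, 41.3% were called in the first of these comparisons (19.4% higher, 22% lower) and 33.5% in the second (16.3% higher, 17.1% lower). The median log2 difference of the 10 genes was 0.23 against 0.02 over all genes tested in the first comparison, and 0.26 against 0.02 in the second. On the log2(TPM + 0.1) scale limma called 7 of the 10 genes higher and none lower in each comparison, but there all genes split into 6809 higher and 879 lower in the first and 4277 higher and 624 lower in the second.

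Both subunits of glutamate-cysteine ligase were higher in the BCAM cells. Gclm (ENSMUSG00000028124, chr3:122245557-122270732, plus strand, GRCm38), the modifier subunit, ranged from 25.6 to 78.2 CPM in BCAM high with a median of 39.7, and from 31.3 to 58.2 CPM in BCAM low with a median of 43.6. In differentiated libraries it ranged from 10.7 to 20.0 CPM with a median of 16.7. Every BCAM library was thus above every differentiated library, which held for no other member. Gclm differed by a log2 of 1.5 ± 0.20 (SE) in BCAM high (edgeR QL adjusted p = 4.75e-07), a fold of 2.82 with a 95% interval of 2.15 to 3.69. In BCAM low the log2 difference was 1.40 ± 0.20 (edgeR QL adjusted p = 2.37e-06). Of all genes tested, 13.4% had non-overlapping groups in the first comparison and 7.27% in the second. Gclm counts were low in differentiated libraries, from 23 to 38. Of the 31-base words in its annotated transcripts, 5.8% also occurred in another gene, 3.55% in Ppia.

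Gclc (ENSMUSG00000032350, chr9:77754535-77794485, plus strand), the catalytic subunit, ranged from 42.1 to 88.1 CPM in BCAM high (median 64.3), from 37.3 to 78.2 in BCAM low (median 69.9) and from 24.7 to 56.1 in differentiated libraries (median 41.0). The groups overlapped, but within each batch every BCAM library was above every differentiated library. The log2 difference from differentiated cells was 0.68 ± 0.13 (SE) in BCAM high (edgeR QL adjusted p = 0.000126) and 0.62 ± 0.13 in BCAM low (adjusted p = 0.000598). Gclc was higher in 8 of 8 same-numbered libraries in both, which the gap within each batch already implies. Replicate numbers were not taken as pairs here or for the genes below, so such counts are descriptions only. With transcript length as an offset the 2 log2 differences were 1.08 and 0.99, over 1.5 times the values without it. In batch 2 alone the BCAM low value was 0.51 and was not called (edgeR QL adjusted p = 0.201).

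Neither glutathione peroxidase passed the test. Gpx1 (ENSMUSG00000063856, chr9:108338903-108340343, plus strand), the cytosolic enzyme found in most cells, ranged from 153 to 223 CPM in BCAM high, from 157 to 248 in BCAM low and from 158 to 262 in differentiated libraries, with medians of 191, 192 and 199.8. Gpx2 (ENSMUSG00000042808, chr12:76792333-76795554, minus strand), an epithelial glutathione peroxidase, ranged from 219 to 406 CPM in BCAM high, from 237 to 324 in BCAM low and from 172 to 376 in differentiated libraries, with medians of 299.5, 282 and 269. The 3 groups overlapped for both genes. Of the 31-base words in annotated Gpx2 transcripts, 9.64% also occurred in another gene, 9.24% in the pseudogene Gpx2-ps1, while Gpx1 shared none. The fold in BCAM high against differentiated had a 95% interval of 0.809 to 1.07 for Gpx1 and of 0.932 to 1.35 for Gpx2, and in BCAM low of 0.837 to 1.10 and 0.829 to 1.20. On the TPM scale both genes were called higher in both BCAM subsets by limma, with log2 values of 0.68 for Gpx1 and 0.92 for Gpx2 in BCAM high, but on that scale the median of all genes tested was itself 0.75. Relative to that median, Gpx1 was at -0.07 and Gpx2 at 0.17.

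A pair of mu-class transferases that neighbour each other on chromosome 3 were higher in both BCAM subsets than in differentiated cells. Gstm1 (ENSMUSG00000058135, chr3:108012255-108017973, minus strand) ranged from 1776 to 4121 CPM in BCAM high with a median of 3217, and from 1388 to 3403 CPM in BCAM low with a median of 2680.1. In differentiated libraries Gstm1 ranged from 297 to 2627 CPM with a median of 1852. The whole groups overlapped, and in batch 1 the lowest BCAM low library (2606 CPM) was below the highest differentiated library (2627 CPM). Gstm1 differed by a log2 of 1.18 ± 0.21 (SE) in BCAM high (edgeR QL adjusted p = 8.49e-05; fold 2.26) and of 0.90 ± 0.21 in BCAM low (adjusted p = 0.00188; fold 1.87), higher in 8 of 8 same-numbered libraries in both.

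Gstm2 (ENSMUSG00000040562, chr3:107981702-107986453, minus strand) ranged from 422 to 1571 CPM in BCAM high (median 1266), from 265 to 1055 in BCAM low (median 831) and from 45.2 to 727 in differentiated libraries (median 496). Within each batch, every BCAM library was above every differentiated library. Its log2 difference was 1.60 ± 0.24 (SE) in BCAM high (edgeR QL adjusted p = 7.9e-06; fold 3.04) and 0.99 ± 0.24 in BCAM low (adjusted p = 0.00232; fold 1.98). Counting same-direction gaps in both batches, 4 of the 10 genes (Gclc, Gclm, Gstm1, Gstm2) were apart in BCAM high against differentiated, beside 17.5% of all genes. In BCAM low against differentiated 3 were apart (Gclc, Gclm, Gstm2), beside 10.7% of all genes. Without a batch term in the fit, Gstm1 (edgeR QL adjusted p = 0.0577 in BCAM high and 0.202 in BCAM low) and Gstm2 in BCAM low (adjusted p = 0.309) were not called.

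Mu-class genes resemble one another in sequence, which limits how reads can be assigned. Of the 31-base words in annotated Gstm1 transcripts, 28.8% also occurred in another gene, 22.6% in the pseudogene Gstm2-ps1 and 13.0% in Gstm3, and for Gstm2 the share was 12.2%, with 2.32% in Gstm1. With the counts of Gstm1 to Gstm7 added up, the log2 difference was 1.21 in BCAM high (edgeR QL adjusted p = 1.88e-05) and 0.86 in BCAM low (adjusted p = 0.00123). The ratio of Gstm1 to Gstm2 in TPM was not fixed. Taking BCAM high, BCAM low and differentiated libraries in turn, its median was 3.54, 4.19 and 4.80 in batch 1 and 4.37, 5.67 and 6.26 in batch 2.

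Gsta4 (ENSMUSG00000032348, chr9:78182774-78209349, plus strand), an alpha-class transferase that conjugates lipid aldehydes such as 4-hydroxynonenal, was not called in either comparison. It ranged from 699.7 to 906 CPM in BCAM high (median 817), from 839 to 1039 in BCAM low (median 941) and from 141 to 1184 in differentiated libraries (median 919). The differentiated group held both the lowest and the highest library. The log2 difference from differentiated cells was 0.30 ± 0.29 (SE) in BCAM high (edgeR QL adjusted p = 0.433) and 0.50 ± 0.29 in BCAM low (adjusted p = 0.194). The batches went opposite ways: fitted alone, batch 1 gave -0.31 in BCAM high (edgeR QL adjusted p = 0.015) and batch 2 gave 1.64 (adjusted p = 0.0231). By limma on log2(TPM + 0.1) Gsta4 was called higher in both comparisons, by 1.26 in BCAM high (adjusted p = 0.000478) and 1.21 in BCAM low (adjusted p = 0.00129). Relative to the median of all genes on that scale these values were 0.50 and 0.73.

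Txnrd1 (ENSMUSG00000020250, chr10:82833951-82897712, plus strand), the cytosolic thioredoxin reductase, ranged from 20.8 to 48.1 CPM in BCAM high (median 32.8), from 22.8 to 51.2 in BCAM low (median 35.9) and from 36.6 to 66.6 in differentiated libraries (median 50.3). By CPM it was lower in 8 of 8 same-numbered libraries in both comparisons, although the groups overlapped and the numbers were not taken as pairs. In BCAM high it was lower by a log2 of -0.62 ± 0.17 (SE; edgeR QL adjusted p = 0.00422), a direction that turned to 0.26 on the TPM scale, where the value relative to the median of all genes was -0.50. The BCAM low value of -0.43 ± 0.17 missed the threshold (edgeR QL adjusted p = 0.0538) but passed it by the DESeq2 Wald test (adjusted p = 0.0465) and in 6 of the 24 fits that left out 1 library (edgeR QL adjusted p over all 24 from 0.0157 to 0.117). Fitted alone for BCAM high, batch 1 gave -0.75 (edgeR QL adjusted p = 0.00782) and batch 2 gave -0.43, which was not called (adjusted p = 0.213). With transcript length as an offset the BCAM high value was -0.42 and was not called (edgeR QL adjusted p = 0.156).

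Txnrd1 also differed in which transcript its counts were assigned to, as a description with no test. The upstream transcript Txnrd1-205, whose start lies 25228 bases before that of Txnrd1-201, held 33.7% of the summed Txnrd1 counts in BCAM high, 21.7% in BCAM low, against 3.74% in differentiated libraries. Its estimated counts ran from 0 to 78.5 in BCAM high (median 42.5), from 0 to 80.0 in BCAM low (median 11.6) and from 0 to 11.6 in differentiated libraries (median 0). In BCAM low it was at 0 in all 3 libraries of batch 2. Txnrd1-201, the transcript whose window holds the antioxidant response element core, held 43.7%, 58.0% and 77.4% of the summed counts in the same order. Reads of 38 bp leave the division among transcripts uncertain, and single BCAM libraries ranged from none to most of their Txnrd1 counts on Txnrd1-205.

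Nqo1 (ENSMUSG00000003849, chr8:107388225-107403206, minus strand), the quinone reductase often used as a readout of NRF2, was the least abundant of the set. It ranged from 1.77 to 16.0 CPM in BCAM high (median 5.36), from 4.03 to 13.2 in BCAM low (median 7.32) and from 2.73 to 17.9 in differentiated libraries (median 5.30). The groups overlapped almost fully, and the 95% interval of the fold against differentiated cells was 0.496 to 1.28 in BCAM high and 0.637 to 1.63 in BCAM low. Neither comparison was called (edgeR QL adjusted p = 0.491 and 0.964).

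Hmox1 (ENSMUSG00000005413, chr8:75093621-75100589, plus strand), which degrades haem, ranged from 6.00 to 27.6 CPM in BCAM high (median 15.8), from 7.29 to 36.2 in BCAM low (median 13.0) and from 18.5 to 41.5 in differentiated libraries (median 25.9). It was lower than in the same-numbered differentiated library in 8 of 8 BCAM high and 7 of 8 BCAM low libraries. The log2 difference was -0.83 ± 0.28 (SE) in BCAM high (edgeR QL adjusted p = 0.0187) and -0.73 ± 0.28 in BCAM low (adjusted p = 0.0469). On the log2(TPM + 1) scale the values were 0.0021 in BCAM high and -0.29 in BCAM low, neither called by limma. Relative to the median of all genes on that scale they were -0.63 and -0.69. The Hmox1 call was not stable. In BCAM low it was lost in 12 of the 24 fits that left out 1 library, where the adjusted p (edgeR QL, BH) ran from 0.00791 to 0.0994. It was also lost in both comparisons with transcript length as an offset (adjusted p = 0.0591 and 0.0641) and with no filter on low counts (0.0552 and 0.107). In BCAM high neither batch was called when fitted alone (-0.84 in batch 1 and -0.82 in batch 2; edgeR QL adjusted p = 0.0937 and 0.109). In BCAM low, batch 1 alone gave -0.46 (edgeR QL adjusted p = 0.364) and batch 2 alone -1.32 (adjusted p = 0.025). Macrophages are a rich source of Hmox1 RNA. Their 10 marker genes summed to a median of 28.6 CPM in differentiated libraries, beside 33.7 in BCAM high and 60.8 in BCAM low. Of the defining macrophage markers, Adgre1 was at 0 in 7 of the 8 differentiated libraries. Csf1r was at 0 in none of them, with medians of 7.98 CPM there, 10.5 in BCAM high and 16.5 in BCAM low. A wider list of 10 immune genes summed to 1352 to 25241 CPM in differentiated libraries, 60.5 to 348 in BCAM high and 475 to 2009 in BCAM low, while the leukocyte marker Ptprc was at 3.17 CPM or less in differentiated libraries; the part of immune cells was not tested.

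**Figure D2:**
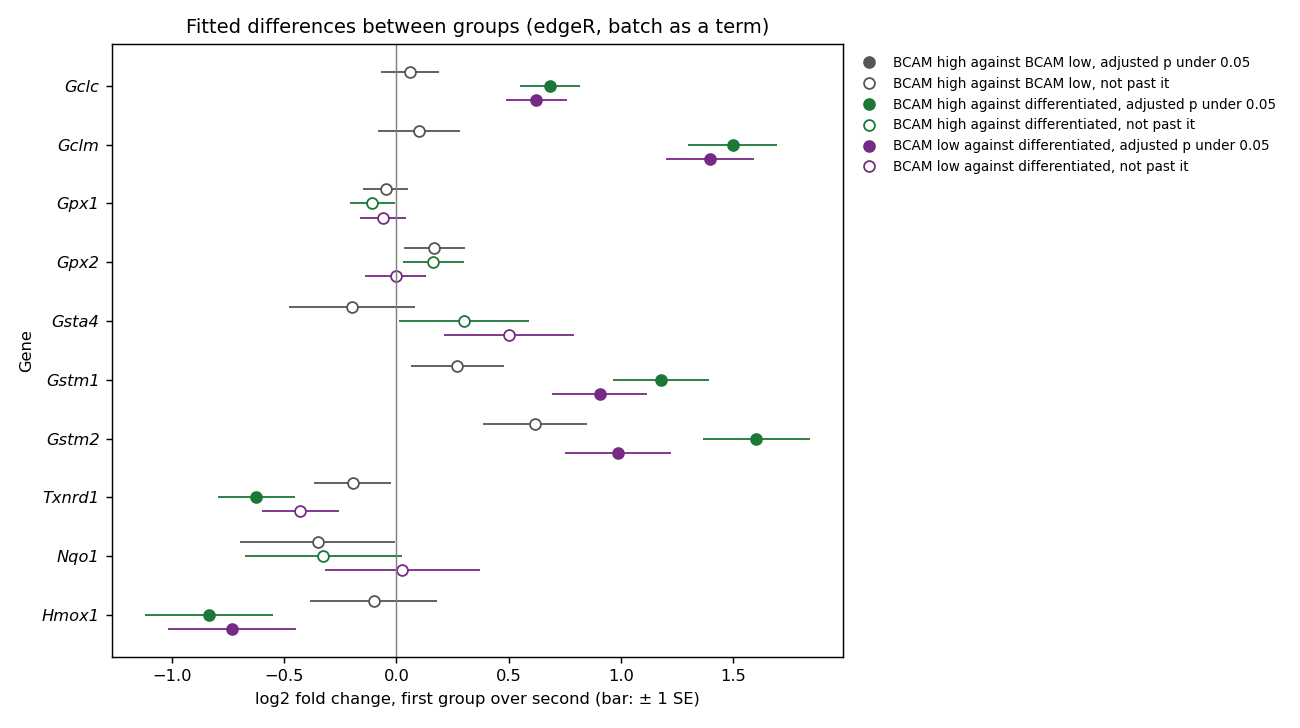
Fitted log2 differences of the 10 genes (points, with bars of 1 SE) for BCAM high against BCAM low and for each BCAM subset against differentiated cells; filled points have an edgeR QL adjusted p under 0.05. Gclc, Gclm, Gstm1 and Gstm2 lie to the right and Hmox1 to the left in both comparisons with differentiated cells, and no gene is filled for BCAM high against BCAM low. On the TPM scale Txnrd1 in BCAM high turns from -0.62 to 0.26, which is -0.50 relative to the median of all genes there.

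Between the basal subsets, none of the 10 genes was called (edgeR QL adjusted p from 0.114 to 0.889), beside 7.02% of all genes tested. At an unadjusted p under 0.05 there was 1 of the 10, Gstm2, beside 20.8% of all genes. Gstm2 was higher in BCAM high than in BCAM low in 8 of 8 same-numbered libraries and did not overlap within either batch, which 3.16% of all genes also showed. In batch 1 it ran from 1249.9 to 1571 CPM in BCAM high and from 824 to 1055 in BCAM low, and in batch 2 from 422 to 525 against 265 to 341. Its fold was 1.53 with a 95% interval of 1.12 to 2.10, a log2 difference of 0.62 ± 0.23 (SE; edgeR QL adjusted p = 0.114). The call depended on what else entered the fit: with only the BCAM libraries the log2 value was 0.60 (edgeR QL adjusted p = 1.17e-05), in batch 1 alone 0.61 (adjusted p = 0.00206) and in batch 2 alone 0.63 (adjusted p = 0.569). It also passed without differentiated replicate 6 or without differentiated replicate 7, and by the DESeq2 Wald test (adjusted p = 0.0472).

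None of the other 9 genes was called between the subsets in this fit. Gstm1 was higher in BCAM high in 8 of 8 same-numbered libraries, by a log2 of 0.27 ± 0.21 (SE; edgeR QL adjusted p = 0.503). Gclm did not overlap in batch 2, where it ran from 62.7 to 78.2 CPM in BCAM high and from 31.3 to 58.2 in BCAM low, but was not called there (0.63; edgeR QL adjusted p = 0.224). In batch 1 Gclm overlapped and its value was -0.26 (edgeR QL adjusted p = 0.417). The fold of BCAM high against BCAM low had a 95% interval of 0.875 to 1.24 for Gclc, 0.837 to 1.37 for Gclm, 0.843 to 1.11 for Gpx1 and 0.935 to 1.35 for Gpx2. It was wider for Nqo1, at 0.492 to 1.25, and for Hmox1, at 0.635 to 1.37. The remaining intervals were 0.596 to 1.27 for Gsta4 and 0.693 to 1.10 for Txnrd1.

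Batch differences were called for Gstm1 and Gstm2 in all 3 subsets, for Gclc in a pair of them, and for Gclm and Gsta4 in 1 each. In batch 2 against batch 1, edgeR QL called 3 of the 10 genes in BCAM high (8.04% of all genes tested), 3 in BCAM low (11.1%) and 4 in differentiated cells (20.1%). Gstm1 and Gstm2 were lower in batch 2 in all 3 subsets, with log2 differences of -0.91 and -1.53 in BCAM high, -0.96 and -1.56 in BCAM low, and -2.46 and -2.88 in differentiated cells. In differentiated libraries Gstm2 ran from 449 to 727 CPM in batch 1 and from 45.2 to 154 in batch 2, a fold of 7.36 lower (edgeR QL adjusted p = 4.12e-07). Gstm1 there ran from 1764 to 2627 CPM in batch 1 and from 297 to 582 in batch 2, a fold of 5.52 lower (adjusted p = 6.12e-10). Gsta4 was lower in batch 2 in differentiated cells, where it ran from 909 to 1184 CPM in batch 1 and from 141 to 468 in batch 2 (log2 -2.01 ± 0.26; edgeR QL adjusted p = 5.63e-06). In the BCAM subsets Gsta4 had batch differences of -0.07 in both, which were not called (adjusted p = 0.914 and 0.901). Without differentiated replicate 8 the batch differences in differentiated cells were -3.69 for Gstm2, -2.78 for Gsta4 and -2.82 for Gstm1.

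The ligase subunits Gclm and Gclc differed by batch in different subsets. Gclm in BCAM high ran from 25.6 to 41.7 CPM in batch 1 and from 62.7 to 78.2 in batch 2, without overlap (log2 1.02 ± 0.20; edgeR QL adjusted p = 0.00143). In BCAM low the Gclm batches overlapped and the value was 0.12 (adjusted p = 0.774). Gclc went the other way, lower in batch 2 in BCAM low (69.7 to 78.2 CPM in batch 1, 37.3 to 52.0 in batch 2; log2 -0.80 ± 0.19; edgeR QL adjusted p = 0.00617) and in differentiated cells (log2 -0.62 ± 0.20, adjusted p = 0.028). In BCAM high the Gclc value of -0.44 was not called (edgeR QL adjusted p = 0.158). The call in differentiated cells was lost without differentiated replicate 2, 4, 6 or 7 (edgeR QL adjusted p from 0.0575 to 0.166), and that in BCAM low without BCAM low replicate 7 (adjusted p = 0.0528). No batch difference of Gpx1, Gpx2, Nqo1, Txnrd1 or Hmox1 was called in these fits (edgeR QL adjusted p from 0.105 to 0.986).

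The size of several differences from differentiated cells depended on the batch. A fit with a mean for each subset and batch called this dependence for 4 of the 10 genes in BCAM high against differentiated (8.69% of all genes tested), 3 in BCAM low against differentiated (11.4%) and none in BCAM high against BCAM low (1.06%). In the last of these, Gclm was the only gene of the 10 with an unadjusted p under 0.05 (11.7% of all genes), at 0.90 (edgeR QL adjusted p = 0.157). Fitted alone for BCAM high against differentiated, batch 1 gave log2 values of 0.67 for Gstm1, 1.16 for Gstm2 and 0.98 for Gclm, and batch 2 gave 2.22, 2.51 and 2.29. For BCAM low against differentiated, batch 1 gave 0.41 for Gstm1 and 0.55 for Gstm2, and batch 2 gave 1.92 and 1.88. Gsta4 had no such difference in batch 1 of BCAM low (-0.12, edgeR QL adjusted p = 0.39) and one of 1.84 in batch 2 (adjusted p = 0.0224). The differences between batches for Gsta4, Gstm1 and Gstm2 lay between 1.32 and 1.95 on the log2 scale in both comparisons, which share the differentiated libraries.

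**Figure D3:**
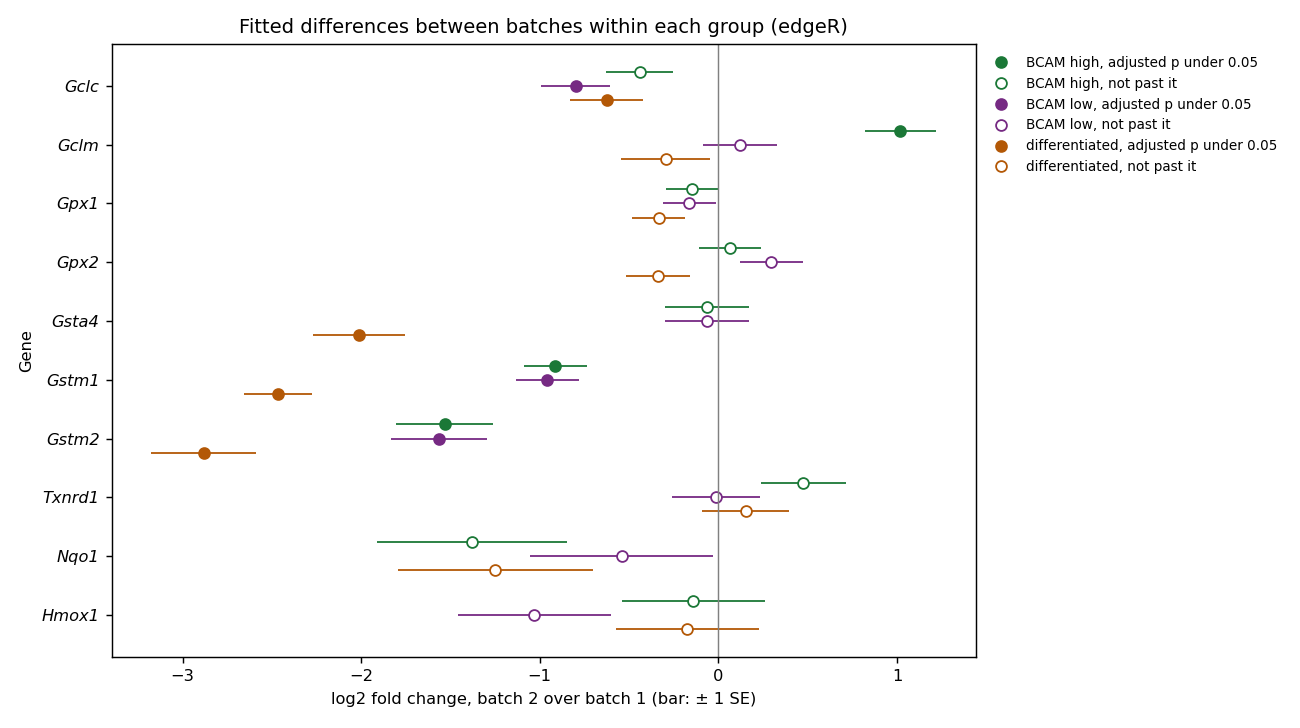
Fitted log2 differences of batch 2 against batch 1 (points, with bars of 1 SE) for the 10 genes within each subset; filled points have an edgeR QL adjusted p under 0.05. Gstm1 and Gstm2 lie to the left in all 3 subsets, Gsta4 is at -2.01 in differentiated cells and at -0.07 in both BCAM subsets, and Gclm is at 1.02 in BCAM high.

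The libraries in which the transferases were low also held other levels of cell type markers. In differentiated replicates 6, 7 and 8, the libraries of batch 2, Gsta4 was at 160.4, 141 and 468 CPM, and the summed secretory markers were at 27505, 17192 and 115083 CPM. Gstm2 in the same libraries was at 45.2, 50.3 and 154 CPM, so that the library with the highest secretory level had the highest level of both genes. Among the BCAM libraries the secretory sum did not run with the batch difference: in BCAM low it was higher in batch 2 (87862.5 to 99063 CPM) than in batch 1 (42220 to 65358 CPM), while Gstm1 and Gstm2 were lower in batch 2. The part of secretory cells, of thyroid RNA and of other cells in the batch differences was not tested.

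**Figure D4:**
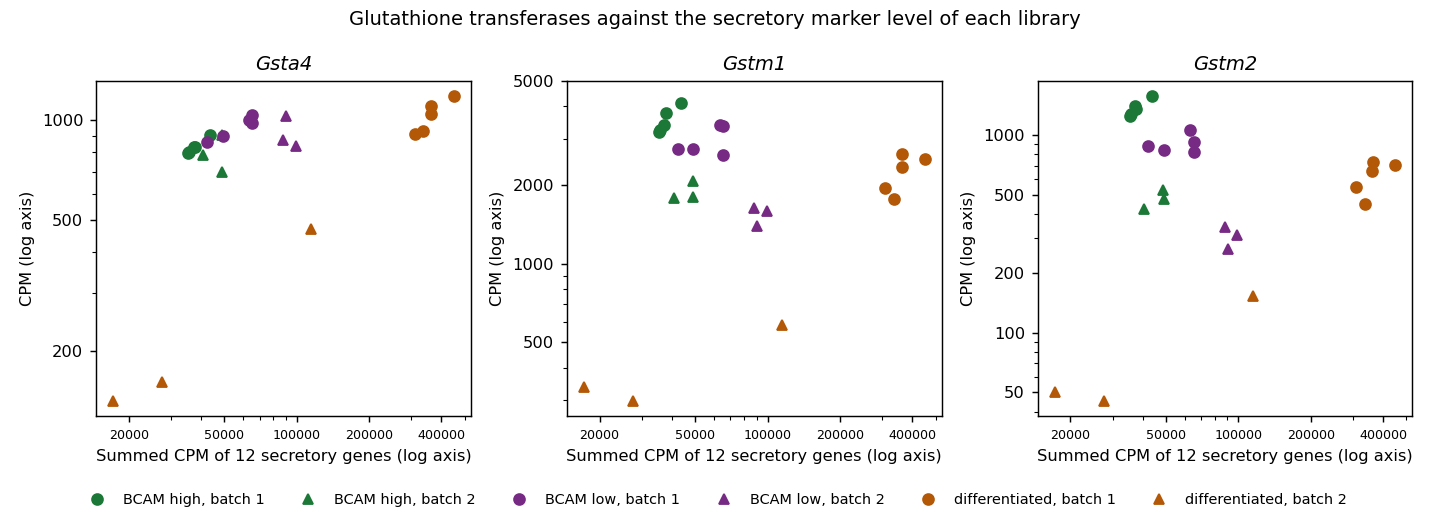
CPM of Gsta4, Gstm1 and Gstm2 (log axis) against the summed CPM of 12 secretory marker genes (log axis) in the 24 libraries, coloured by subset, with the marker shape giving the batch. The 3 differentiated libraries of batch 2 lie between 17192 and 115083 CPM of secretory markers with the lowest levels of all 3 genes, and the 5 of batch 1 lie above 309154 CPM.

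Across all 24 libraries the nearest patterns were found by Pearson's correlation of log2 CPM over 9408 genes, or 9409 for Nqo1, with a mean of at least 10 CPM. These values describe libraries that share subset, batch and depth and carry no test. Gstm1 and Gstm2 were nearest to each other (r = 0.986), followed by Ifitm3 (0.943) and Hmgn3 (0.941) for Gstm1 and by Ephx1 (0.957), an epoxide hydrolase, and Lgals9 (0.953) for Gstm2. Gsta4 was nearest to the sulfotransferase Sult1d1 (0.969), Vill (0.961) and Mgst2 (0.960), a microsomal glutathione transferase. Gclm was nearest to Ston2 (0.924), Bmp7 (0.907) and Sipa1l1 (0.905), and Gclc to Rpl37rt (0.871), D17Wsu92e (0.871) and the clock gene Arntl (0.858). The other 5 genes had weaker neighbours, led by Ndufs8 for Gpx1 (0.815), Cgnl1 for Txnrd1 (0.791), Taf13 for Gpx2 (0.766), Abhd14b for Hmox1 (0.740) and the aldo-keto reductase Akr1b8 for Nqo1 (0.667). Within the set, Gsta4 and Gstm1 had r = 0.862, Gclc and Gstm2 0.848, the ligase subunits Gclc and Gclm 0.498, and Gstm2 and Txnrd1 -0.559.

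The 10 genes were then set beside 113 further genes of the redox system in 10 lists, of which 99 were tested. In BCAM high against differentiated, edgeR QL called 12 of the 99 higher and 47 lower (59.6% called, median log2 -0.44). Of all genes tested, 41.3% were called there (19.4% higher, 22% lower, median 0.02). In BCAM low against differentiated 11 of the 99 were higher and 34 lower (45.5% called, median -0.30), beside 33.5% of all genes (16.3% higher, 17.1% lower, median 0.02). On the log2(TPM + 0.1) scale the split turned to 38 higher and 16 lower in BCAM high and 25 higher and 18 lower in BCAM low, where the medians relative to those of all genes were -0.44 and -0.29. Between BCAM high and BCAM low, none was higher and 5 were lower: Mgst1 (-1.53), Gstp2 (-1.39), Abcc1 (-0.68), Taldo1 (-0.49) and Txn1 (-0.44). That is 5.05% called, beside 7.02% of all genes tested. For the counts of single lists against differentiated cells below, the shares of all genes called are the 41.3% and 33.5% given above. These shares hold for the edgeR QL fit of all 24 libraries and not for the TPM scale or a single batch. Of 19 other transferases tested, none was higher and 14 were lower in BCAM high than in differentiated cells, and 1 was higher and 9 lower in BCAM low. On the log2(TPM + 0.1) scale, where most called genes of all were higher, these counts were 3 higher and 5 lower in either subset. In batch 2 alone 2 of 18 were higher and 7 lower in BCAM high, and 4 higher and 5 lower in BCAM low. Relative to the median of all genes, the transferase medians in BCAM high and BCAM low were -0.71 and -0.67 on that TPM scale. By the same measure they were -0.53 and -0.17 in batch 2 alone. Mgst1, a microsomal transferase, was lower by a log2 of -3.44 in BCAM high (edgeR QL adjusted p = 4.02e-08) and of -1.91 in BCAM low (adjusted p = 0.000138). The theta-class genes Gstt1 (-2.67) and Gstt2 (-3.40) were lower in BCAM high too.

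In the ligase list, 2 of 9 other genes were higher and 2 lower in BCAM high: the amino acid transporters Slc1a4 (1.20) and Slc3a2 (0.35) were higher, and Slc1a5 (-0.82) and glutathione synthetase, Gss (-0.76), were lower than in differentiated cells. All 5 genes of the superoxide dismutase and catalase list, which also holds Ccs, were lower in both BCAM subsets. Among them were Sod1 by -0.91 and Cat by -0.63 in BCAM high. Of 4 further peroxidases, Gpx4 (-0.79) and the secreted Gpx3 (-4.35) were lower in BCAM high, and Gpx8 (0.42) was higher in BCAM low. In the list of glutathione reduction and NADPH supply, 1 of 14 genes was higher and 7 were lower in BCAM high. In BCAM low 1 was higher and 4 were lower. Glrx (-1.48), Idh1 (-1.29) and Taldo1 (-0.98) were among the lower ones in BCAM high, where Glrx3 (0.37) was higher. In the thioredoxin and peroxiredoxin list 5 of 15 other genes were lower in each subset, including Prdx3 (-1.54), Prdx5 (-1.43) and Txn1 (-1.30) in BCAM high, and Sesn1 (1.17) was higher there. Of 6 further haem and iron genes, 4 were lower in each subset, including Blvrb (-1.17) and the ferritin chain Fth1 (-0.99) in BCAM high.

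The NRF2 genes were mixed: of 10 genes for NRF2 and its partners, 3 were higher and 3 lower in BCAM high than in differentiated cells, and 1 was higher and 1 lower in BCAM low. Nfe2l2, which encodes NRF2, was higher in BCAM high than in differentiated cells by 0.30 ± 0.10 (SE; edgeR QL adjusted p = 0.0169), its inhibitor Keap1 was lower by -0.31 (adjusted p = 0.0332), and the repressor genes split, with Bach2 at 2.38 and Bach1 at -0.73. Of 21 further NRF2 target genes, 3 were higher in BCAM high (Ugdh at 1.06, Ephx1 at 0.82, Pir at 0.77) and 8 lower, and in BCAM low 5 were higher and 5 lower. Of 6 tested genes of the oxidase list, 2 were higher and 3 lower in each BCAM subset. Duoxa2, a maturation factor of the dual oxidases that is abundant in thyroid, was lower in BCAM high by -6.22, while Duoxa1 was higher by 1.95. Since the differentiated libraries carried thyroid RNA at 13796 to 116833 CPM, the part of that RNA in these differences was not tested.

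**Figure D5:**
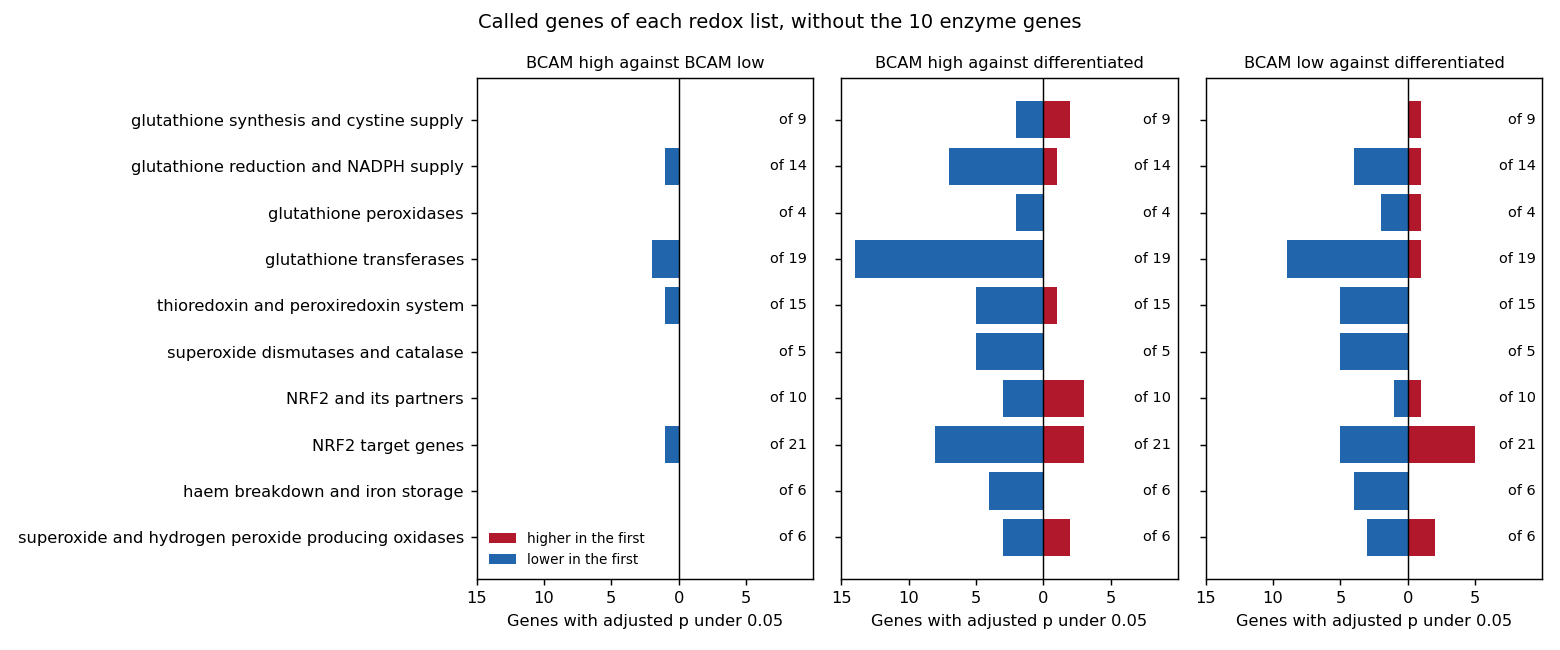
Number of called genes in each of the 10 redox lists, without the 10 enzyme genes, for each comparison between subsets; bars to the right count genes higher in the subset named first and bars to the left count genes lower in it (edgeR QL adjusted p under 0.05). In BCAM high against differentiated 12 of the 99 tested genes are higher and 47 lower, beside 19.4% higher and 22% lower of all genes tested. Of the lower ones, 14 are among the transferases. A gene on several lists is counted in each bar.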

How the data were processed

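RNA of 24 libraries was measured, 8 per subset, each from 1000 sorted cells. The deposited tables give, per the file headers, an estimated count and a TPM value for each of 117497 transcripts. The authors applied no normalization to the estimated counts, whose totals differ between libraries, while TPM, also deposited, corrects for transcript length. kallisto 46.1, Picard and the build GRCm39 are named, per the submitters' processing notes; no label or header gives the annotation release or options.

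Transcripts were matched by identifier to GENCODE M21 on GRCm38, which supplied the names and coordinates printed: 116374 matched, and the 1123 others, left out, held 0.317% to 0.594% of a library's counts. Estimated counts were summed per gene and rounded to whole numbers. Totals ran from 1824619 to 4440072 per library. No molecular identifiers are stated, so reads may be copies and precision was read from the spread between libraries.

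The test was edgeR 4.0.16 (R 4.3.3), quasi-likelihood with robust dispersion, TMM factors and the default filter, in a single fit of all 24 libraries with subset and batch as terms, and a further fit with a mean for each subset and batch. Genes were called at a BH-adjusted p under 0.05. The SE was taken as the absolute log2 change over the root of F. CPM were computed from rounded counts and TMM-scaled totals. limma 3.58.1 was run on log2(TPM + 0.1) and log2(TPM + 1), whose fold changes understate those of low genes, and DESeq2 1.42.0 as an alternative. The fit was tested on simulated data.

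The members and lists were chosen with earlier results of these data known. Genes of the redox lists named beside the 10 members were drawn from up to 3 called genes for each list, comparison and direction. These were the genes with the largest change and a mean of at least 10 CPM, and not all of them are named. Neighbours of a member were drawn from the 3 genes with the highest correlation. Other alternatives were DESeq2 size factors, no filter, a stricter filter (1 CPM in 8 libraries), transcript length offsets, no batch term, only the 2 groups compared, each batch alone, the mu-class counts summed, a block for the replicate number and leaving out each of the 24 libraries. Leaving out Gm10800, which took 0.907% to 22.1% of a library's counts, was chosen after seeing the data.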

Additional observations from a re-analysis of the deposited data

Results flagged for a closer look

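The difference from differentiated cells depended on the batch for 4 genes in BCAM high and 3 in BCAM low, by a test of the dependence itself (edgeR QL, BH adjustment over all genes tested); each value is the log2 difference in batch 2 less that in batch 1. In BCAM high against differentiated it was 1.31 for Gclm (adjusted p = 0.00724), 1.95 for Gsta4 (0.000462), 1.55 for Gstm1 (5.23e-05) and 1.35 for Gstm2 (0.0216). In BCAM low against differentiated it was 1.94 for Gsta4 (edgeR QL adjusted p = 0.000365), 1.51 for Gstm1 (6.96e-05) and 1.32 for Gstm2 (0.0203). These comparisons share the differentiated libraries, of which 3 were of batch 2.

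Single libraries moved these values. Without differentiated replicate 8, which had the highest Gstm2 of the 3, the dependence rose to 2.16 in BCAM high and 2.13 in BCAM low (edgeR QL adjusted p = 7.71e-09 and 9.26e-09). Without the same library the dependence was 2.72 for Gsta4 in both comparisons, and 1.91 and 1.86 for Gstm1. The Gstm2 dependence was not called without differentiated replicate 6 (1.06 and 1.02; adjusted p = 0.0567 and 0.0532), without differentiated replicate 7 (1.08 and 1.05; 0.0705 and 0.0718), in BCAM high without BCAM high replicate 7 (1.28; 0.0528), or in BCAM low without BCAM low replicate 8 (1.22; 0.0529). By limma on log2(TPM + 0.1) the dependence of Gsta4 alone was called in either comparison. There Gclm (adjusted p = 0.497), Gstm1 (0.0818) and Gstm2 (0.134) were not called in BCAM high by limma, nor Gstm1 (0.148) and Gstm2 (0.210) in BCAM low.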

How the results depend on the processing

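Gclc and Gclm were called higher in BCAM high than in differentiated cells under every setting run. The count of the 10 genes called in BCAM high against BCAM low was 0, and 1 (Gstm2) by the DESeq2 Wald test, limma on either TPM scale, with only the 2 groups compared and in batch 1 alone; over left-out libraries it ran from 0 to 1. In BCAM low against differentiated it was 5, and 2 (Gclc, Gclm) with no batch term. Of all genes, 857 were called in BCAM high against BCAM low, 545 with no batch term, 1297 with only the 2 groups compared and 543 in batch 2 alone. In BCAM low against differentiated 4086 were called, and 2221 in batch 2 alone. In BCAM high against differentiated 5044 were called (2363 higher, 2681 lower), but 7688 by limma on log2(TPM + 0.1) (6809 higher, 879 lower) and 7713 on log2(TPM + 1) (6812 higher, 901 lower). On those scales the median of all genes moved to 0.26, 0.75 and 0.48 (TPM + 0.1) and to 0.23, 0.64 and 0.40 (TPM + 1) in BCAM high against BCAM low, BCAM high against differentiated and BCAM low against differentiated. Batch dependence was called by limma on log2(TPM + 0.1) for 1 gene, Gsta4, in either comparison with differentiated cells, and batch 2 against batch 1 in BCAM high for 1, Gstm2. With the replicate number as a block, 0, 6 and 6 of the 10 genes were called in the 3 comparisons, Txnrd1 in BCAM low against differentiated being added (-0.44; edgeR QL adjusted p = 0.0132); the block changed no other call in these comparisons. Deviations of same-numbered libraries correlated at 0.015 to 0.143 in 24 pairs, with 6 over 0.1, so the numbers were not taken as pairs; in 38 of 48 cases a library correlated best with its own number, a hint from the data and not from the design.

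Directions turned mostly where the change was small or the TPM scale was used. Values on the TPM scales are given here before the median of all genes is taken off. Relative to that median, Txnrd1 was at -0.50, Nqo1 at -0.27 and Gpx1 at -0.07 in BCAM high against differentiated on log2(TPM + 0.1). On log2(TPM + 1) Gpx1 was at 0.05 and Hmox1 at -0.63 by the same measure. In BCAM high against BCAM low they turned on log2(TPM + 0.1) for Gpx1 (0.23), Gsta4 (0.043), Txnrd1 (0.17) and Hmox1 (0.32), on log2(TPM + 1) for Gpx1 (0.23), Gsta4 (0.043), Txnrd1 (0.17) and Hmox1 (0.295), with length offsets for Hmox1 (0.017), in batch 1 alone for Gclc (-0.063) and Gclm (-0.26) and in batch 2 alone for Txnrd1 (0.11) and Hmox1 (0.50). Over left-out libraries Hmox1 ran from -0.26 to 0.12 and Gclc from -0.019 to 0.11. In BCAM high against differentiated they turned on log2(TPM + 0.1) for Gpx1 (0.68), Nqo1 (0.48) and Txnrd1 (0.26), on log2(TPM + 1) for Gpx1 (0.68), Nqo1 (0.37), Txnrd1 (0.24) and Hmox1 (0.0021), in batch 1 alone for Gsta4 (-0.31) and in batch 2 alone for Gpx1 (0.00893). In BCAM low against differentiated they turned for Gpx1 on either TPM scale (0.45), with length offsets (0.00399) and in batch 2 alone (0.051). They turned there for Gpx2 on either TPM scale (0.54), with no filter (0.054), a stricter filter (0.011), length offsets (0.055), the replicate block (0.016), in batch 2 alone (0.40) and without Gm10800 (0.011). For Txnrd1 they turned on log2(TPM + 0.1) (0.081) and log2(TPM + 1) (0.075), for Nqo1 with no batch term (-0.030) and in batch 1 alone (-0.22), and for Gsta4 in batch 1 alone (-0.12). Over left-out libraries Gpx2 ran there from -0.093 to 0.070 and Nqo1 from -0.15 to 0.20. In batch 2 against batch 1 of differentiated cells Gpx1 turned on log2(TPM + 0.1) (0.016). The cause was not tested. Of 1812 values recomputed, 1674 kept direction and side of the threshold. Nqo1 had 5 to 58 counts in a library.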
